A study of Mus musculus with 8 samples.

Results

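Spermatogonia sorted for cKit were compared with spermatogonia sorted for Thy1, both from control testes. The comparison is between 4 of the 8 libraries of the series, the 2 titled cKit_PRC1ctrl and the 2 titled Thy1_PRC1ctrl, chosen by title alone. All were made from testes of C57BL/6 mice at postnatal day 7. The other 4 libraries, titled cKit_PRC1dKO and Thy1_PRC1dKO, are 2 of each population from animals in which Polycomb repressive complex 1 (PRC1, a chromatin complex that keeps developmental genes silent) was inactivated. The comparison of the controls gives the difference between the sorted populations in the absence of that knockout. Its p-values use a spread estimated from all 8 libraries, the knockout libraries included. The labels used here do not spell out the alleles of either group. In the published model Rnf2 is deleted by a germ-cell Cre in animals that lack its paralogue Ring1, and whether the controls carried 1 of these alleles is not given in the sources used here. Ring1 was read at 3.15 and 2.70 CPM in the Thy1 libraries and 4.50 and 5.23 CPM in the cKit libraries, and Rnf2 at 103 and 120.3 CPM in the Thy1 libraries and 146 and 125 CPM in the cKit libraries. Neither gene passed the test between the populations (log2 fold change 0.73 ± 0.53, adjusted p = 0.39 and 0.28 ± 0.12, adjusted p = 0.14). Nothing in the labels says whether replicates came from separate animals, so p-values may measure a spread that is partly technical.

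Spermatogonia are the mitotic germ cells of the testis. Undifferentiated spermatogonia, which include the stem cells, carry the surface protein THY1 and depend on glial cell line-derived neurotrophic factor (GDNF), sensed through the receptors GFRA1 and RET. Retinoic acid moves them to the differentiating state, in which they gain the receptor tyrosine kinase KIT (cKit) and express STRA8. Both sort markers are also found outside the germ line. THY1 is carried by fibroblast-like cells and T cells, and KIT by Leydig cells, the steroid-making cells between the tubules, and by mast cells.

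The 4 libraries held 7417665 and 8362701 counts (Thy1 replicates 1 and 2) and 10976869 and 7858587 counts (cKit replicates 1 and 2). Values below are given in CPM, which are counts divided by the library total after scaling by the trimmed mean of M values (TMM), replicate 1 before replicate 2. CPM is not corrected for transcript length, so it is compared between libraries and not between genes. The spread between replicates exceeded counting error: chi-square divided by its degrees of freedom was 6.01 for Thy1 and 12.7 for cKit. Log2 CPM correlated across genes at 0.980 and 0.978 between replicates and at 0.932 to 0.943 between populations. The database record numbers in the labels run from 2384 to 2387 in Thy1 cells and from 3172 to 3346 in cKit cells, both genotypes included, so population and any difference in handling cannot be told apart. Within the cKit cells, control replicate 2 has number 3172 and the dKO libraries 3173 and 3174, while control replicate 1 stands apart at 3346. The labels do not say whether that library was handled separately. The fit was repeated without it, which left cKit control replicate 2 alone in its group. The median log2 fold change over all genes tested was then -0.018. An effect of handling was not tested.

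Of 14907 genes tested with edgeR's quasi-likelihood test, 2939 (19.7%) passed an adjusted p of 0.05. In cKit cells 1410 of them were higher (9.46%) and 1529 lower (10.3%). Counts of called list members below are to be read beside these shares. Before adjustment, 4689 genes (31.5%) had a p under 0.05 in the same test. The share called was under 19.7% for the PRC1 (4.35%), PRC2 (18.2%), DNA methylation (13.3%), G2 and M phase (7.14%), ribosomal protein (10.5%) and Hox lists (17.2%). It ran from 23.1% to 26.7% for the core germ cell, piRNA, immediate early, interferon, oxidative phosphorylation and endothelial lists. The median log2 fold change over all genes tested was 0.01. Leaving out Thy1 replicate 1 left 1717 called and leaving out Thy1 replicate 2 left 1821. Of the called genes, 1481 (9.93%) differed at least 2-fold, 532 higher genes (3.57%) and 949 lower genes (6.37%). The values of the groups did not overlap for 8902 genes (59.7%), so a lack of overlap alone says little in this comparison. The plot of fold change against level shows that marker lists of single cell types lie to 1 side. Markers of Leydig and mast cells lie above the bulk of genes, and markers of stromal cells, macrophages and undifferentiated spermatogonia below it. When the libraries were scaled on core germ cell genes in place of all genes, the median of all genes moved to 0.45, and 2342 genes were higher and 642 lower. In limma, run on RPKM as deposited, the median was 0.14, and 2504 genes were higher and 927 lower. Where the first scaling turns a list's direction, its value is given below. Calls it ended among the genes named below were Dazl, Wt1, Nr2f2, Tcf21, Cdh5, Tek, Eng, Nanos2, Lin28a, Mcam, Etv5, Foxo1, Ccnd2, Stra6, Morc1, Tdrd5, Ndc80, Kif11, Sesn1, Igf2bp2, Igf2bp3, Atp5g1, Hoxc4, Hoxb5, B2m, Mtf2, Ezh1, Ddit4, Thbd, Brwd3, Spry1, Ifih1 and Igf2, all lower under TMM. Dazl is itself among the core germ cell genes used for that scaling, so its lost call is no independent result.

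**Figure D1:**
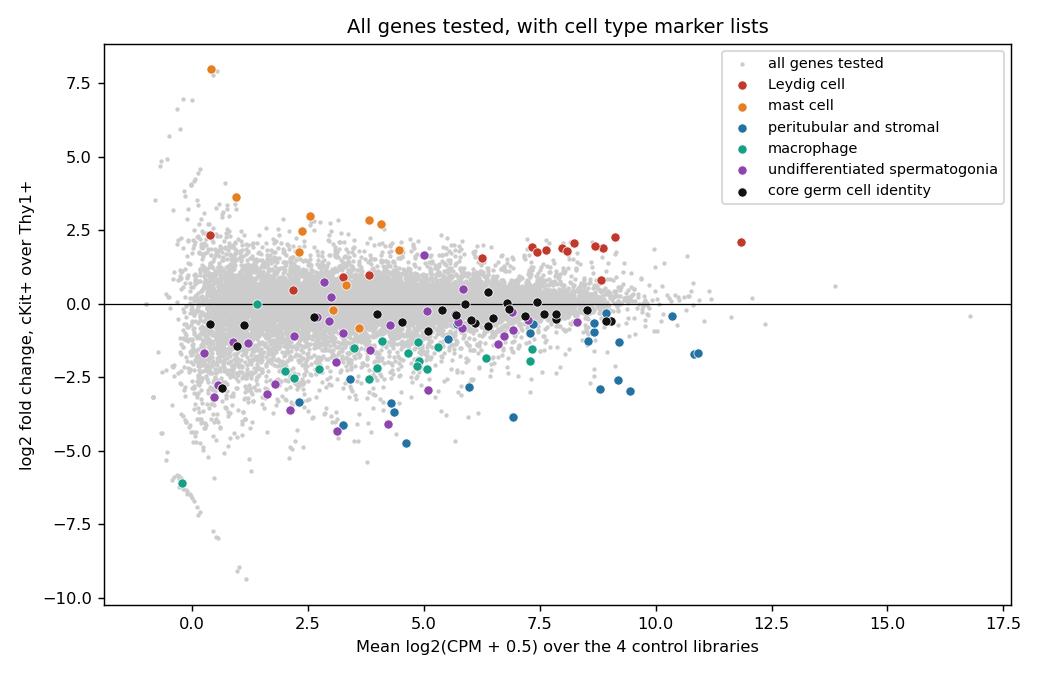
Log2 fold change of cKit over Thy1 control cells (vertical axis) against the mean log2(CPM + 0.5) over the 4 control libraries (horizontal axis) for the 14907 genes tested, in grey, with the members of 6 gene lists in colour. Most Leydig and mast cell markers lie above 0, most stromal and macrophage markers below it, and most core germ cell genes close to it. The spread at the left end comes from genes with few counts, and a gene with 0 counts in a group has a fitted value that is no bound.

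Both sort markers differed in the direction of the sort. Thy1 had 198 and 153 counts in the Thy1 libraries and 5 and 9 in the cKit libraries, which is 26.01 and 17.9 CPM in the Thy1 libraries and 0.433 and 1.15 CPM in the cKit libraries. Its log2 fold change was -4.86 ± 0.57, adjusted p = 1.7e-05, a 29.1-fold lower level. Kit was read at 301 and 317 CPM in the Thy1 libraries and 1048 and 937 CPM in the cKit libraries, 3.21-fold higher in cKit cells (log2 fold change 1.68 ± 0.11, adjusted p = 3.7e-08). Kit RNA was thus present in both Thy1 libraries. The germ cell genes Ddx4 and Dazl, given below, were present in all 4 libraries, and so were markers of Leydig and stromal cells. Which cells this RNA came from was not tested. The files list Kit under 2 transcript entries with nearly the same counts (1146 and 1146 in Thy1 replicate 1, for example), so its reads may be counted under both, which leaves the ratio but not the level readable.

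Promoters are shown for 4 genes that were higher in cKit cells: the sort marker Kit, Slc25a34, a mitochondrial carrier gene, and the mast cell protease genes Cpa3 and Mcpt4. Each is the 250 bases upstream of the RefSeq transcript start (GRCm38.p6, the same assembly as mm10), 5′ to 3′ on the strand of the gene. They lie at chr5:75574737-75574986 (plus strand, Kit), chr4:141623835-141624084 (minus, Slc25a34), chr3:20242182-20242431 (minus, Cpa3) and chr14:56062311-56062560 (minus, Mcpt4). Capitals mark matches on either strand to 3 motifs, which do not overlap here. No further rule picked these 4 from the genes named in this report. Every promoter shown holds at least 1 match, so the 4 do not stand for the higher genes as a whole. The GC box, a common promoter element, was searched as GGGCGG. The half-site read by NR5A1, the orphan receptor that drives steroidogenic genes, was searched as AAGGTCA. The TATA box, which places the start of transcription, was searched as TATAAA.
Kit: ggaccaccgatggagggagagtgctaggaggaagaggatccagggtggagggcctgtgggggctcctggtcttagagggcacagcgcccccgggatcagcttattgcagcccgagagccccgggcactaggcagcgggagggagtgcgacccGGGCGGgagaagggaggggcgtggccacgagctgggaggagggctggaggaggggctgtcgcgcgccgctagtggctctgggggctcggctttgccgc
Slc25a34: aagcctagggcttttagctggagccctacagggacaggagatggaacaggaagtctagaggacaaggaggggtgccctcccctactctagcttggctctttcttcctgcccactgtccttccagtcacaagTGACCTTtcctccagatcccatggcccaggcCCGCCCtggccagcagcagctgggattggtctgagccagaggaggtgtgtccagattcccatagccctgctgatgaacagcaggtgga
Cpa3: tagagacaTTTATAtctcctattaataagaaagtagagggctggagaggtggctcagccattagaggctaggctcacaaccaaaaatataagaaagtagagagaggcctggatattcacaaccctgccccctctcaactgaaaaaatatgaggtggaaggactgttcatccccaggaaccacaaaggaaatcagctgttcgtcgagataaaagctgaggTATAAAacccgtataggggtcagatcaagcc
Mcpt4: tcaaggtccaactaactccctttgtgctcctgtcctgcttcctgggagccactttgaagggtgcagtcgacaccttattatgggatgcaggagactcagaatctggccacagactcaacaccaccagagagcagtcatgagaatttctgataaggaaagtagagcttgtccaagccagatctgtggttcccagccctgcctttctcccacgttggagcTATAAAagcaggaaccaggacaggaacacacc

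Cpa3 and Mcpt4 hold TATAAA with its first letter 31 and 32 bases upstream of the start, and the Kit promoter holds 1 GC box and no TATAAA. Cpa3 holds a further TATAAA match on the opposite strand, printed from 242 bases upstream. In Slc25a34 AAGGTCA and GGGCGG matched on the opposite strand, printed from 119 and 88 bases upstream. Of the 14907 genes tested, 10954 had a promoter in the table, taken as the first listed for the symbol. TATAAA was found in 6.61% of them, in 6.72% of 1042 promoters of genes higher in cKit cells and in 8.64% of 1076 promoters of lower genes. AAGGTCA was found in 2.87% of all, in 4.22% of the higher and in 1.95% of the lower set. GGGCGG was found in 58.0% of all, in 62.4% of the higher and in 53.1% of the lower set. By list it was in 14 of 16 promoters of cholesterol synthesis and uptake genes, 4 of 10 Leydig and 3 of 9 mast cell promoters. It was also in 5 of 13 macrophage, 3 of 15 stromal and 12 of 21 undifferentiated spermatogonia promoters. None of the 10 Leydig marker genes with a promoter in the table held AAGGTCA in this window. These are counts of letters in a fixed window and were not tested.

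Marker genes of undifferentiated spermatogonia were mostly lower in cKit cells. Of 34 genes of that list tested, 1 was higher and 19 lower, and the median log2 fold change was -1.04 against 0.01 for all genes. Glis3 and Foxc2, transcription factors of early spermatogonia, were at 86.4 and 102 CPM in the Thy1 libraries and 14.1 and 10.1 CPM in the cKit libraries and at 10.8 and 13.7 CPM in the Thy1 libraries and 0.952 and 1.02 CPM in the cKit libraries. Both groups were tight and far apart (log2 fold change -2.94 ± 0.19, adjusted p = 5.2e-08, and -3.62 ± 0.44, adjusted p = 2.5e-05). The transcription factors Zbtb16 (143 and 167 CPM against 58.3 and 61.8 CPM, log2 fold change -1.37 ± 0.13), Bcl6b (-1.97), Id4 (-2.73) and Egr4 (-1.55), the RNA-binding protein gene Lin28a (-1.09) and the adhesion gene Mcam (-0.88) were also lower, and so were Foxo1 (-0.62) and Etv5 (-0.81). Levels in the cKit libraries were not at 0: Zbtb16 kept 58.3 and 61.8 CPM there. Shisa6, which encodes a membrane protein reported in a subset of undifferentiated spermatogonia, was the single higher gene of the list, at 14.97 and 20.6 CPM in the Thy1 libraries and 48.01 and 65.3 CPM in the cKit libraries (log2 fold change 1.66 ± 0.30, adjusted p = 0.00082). Itga6 and Epcam, surface proteins shared by most spermatogonia, did not pass (log2 fold change -0.34 ± 0.17, adjusted p = 0.19 and 0.51 ± 0.20, adjusted p = 0.09).

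Scaled on core germ cell genes, the undifferentiated list had a median of -0.64 with 3 higher and 10 lower. Among genes named above, Gfra1, Ret, Glis3, Foxc2, Zbtb16, Bcl6b, Id4 and Egr4 passed under that scaling. The lower members with the fewest counts depended on single libraries. Nanos2, a translational repressor, was at 1.44 and 3.05 CPM in the Thy1 libraries and 0.173 and 0.51 CPM in the cKit libraries and passed with all libraries (adjusted p = 0.041), but not without Thy1 replicate 1 (0.076), Thy1 replicate 2 (0.33), cKit replicate 1 (0.25) or cKit replicate 2 (0.081). Lhx1, a homeobox gene, was at 1.97 and 2.70 CPM in the Thy1 libraries and 0.433 and 0 CPM in the cKit libraries and passed with all libraries (adjusted p = 0.041), but not without Thy1 replicate 1 (0.11), Thy1 replicate 2 (0.2) or cKit replicate 2 (0.21). Without 1 control library the number of lower members ran from 13 to 18.

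The GDNF receptor pair stood among the genes of largest difference. Gfra1, the ligand-binding receptor, was at 30.3 and 39.6 CPM in the Thy1 libraries and 1.99 and 1.40 CPM in the cKit libraries, 19.995-fold lower in cKit cells (log2 fold change -4.32 ± 0.29, adjusted p = 6.5e-08). Ret, its signalling partner, was at 72.6 and 75.5 CPM in the Thy1 libraries and 5.10 and 3.44 CPM in the cKit libraries (log2 fold change -4.08 ± 0.21, adjusted p = 7.9e-09), and all 4 values fell into 2 tight pairs. Gdnf itself went the other way, at 13.1 and 17.2 CPM in the Thy1 libraries and 38.3 and 43.5 CPM in the cKit libraries (log2 fold change 1.42 ± 0.18, adjusted p = 4.0e-05). Gdnf is also a member of the Sertoli cell list below, and which cells its RNA came from was not tested. Gfra2, the neurturin receptor, was lower (-2.12 ± 0.31), as were the transcription factor Etv4 (-2.88) and the feedback inhibitor Spry1 (-0.91). The fibroblast growth factor receptors Fgfr2 and Fgfr4 were higher, Fgfr2 at 36.5 and 37.3 CPM in the Thy1 libraries and 109 and 146 CPM in the cKit libraries (log2 fold change 1.78 ± 0.16) and Fgfr4 with a log2 fold change of 1.77 ± 0.36. Kitl, the ligand of KIT, did not pass (-0.09 ± 0.12, adjusted p = 0.69). Of 30 genes of the GDNF, FGF and KIT list tested, 7 were higher and 12 lower, with a median of -0.26 that was 0.18 when scaled on core germ cell genes.

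**Figure D2:**
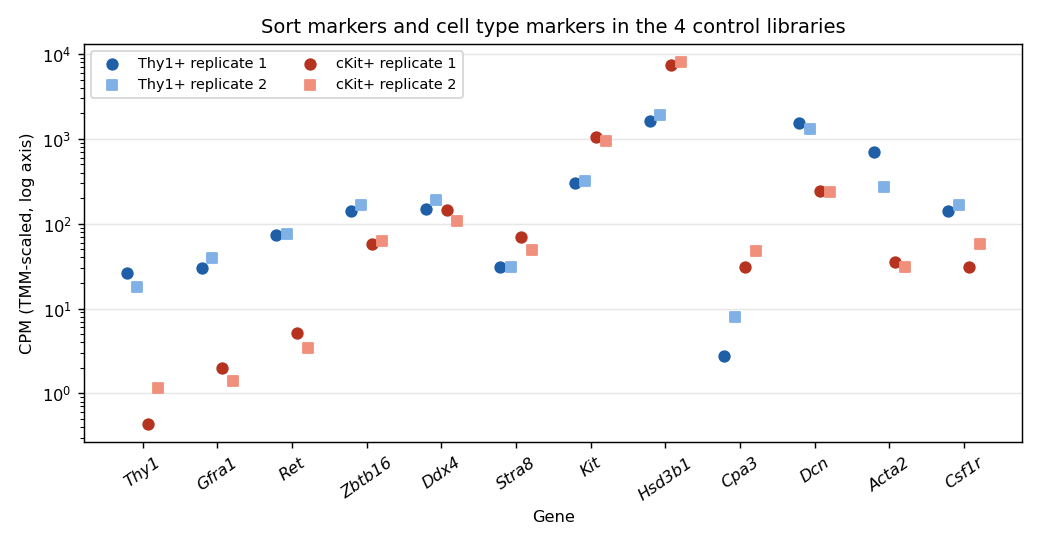
CPM on a log axis of 12 genes in the 4 control libraries, blue for Thy1 and red for cKit, circles for replicate 1 and squares for replicate 2. Thy1, Gfra1 and Ret lie more than 10-fold apart between populations, Ddx4 values of the populations lie close together, Kit, Hsd3b1 and Cpa3 are higher in cKit cells, and Dcn, Acta2 and Csf1r are higher in Thy1 cells.

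A minority of markers of differentiating spermatogonia were higher. Of 16 tested, 4 were higher and 1 lower, with a median log2 fold change of 0.31, which was -0.0033 without cKit replicate 1. Stra8, which retinoic acid induces ahead of meiosis, was at 30.7 and 30.6 CPM in the Thy1 libraries and 70.2 and 48.8 CPM in the cKit libraries (1.95-fold, log2 fold change 0.96 ± 0.19, adjusted p = 0.0018). Dmrtb1, a transcription factor of the switch from mitosis to meiosis, was higher at 20.5 and 19.2 CPM in the Thy1 libraries and 44.98 and 36.2 CPM in the cKit libraries (1.03 ± 0.21, adjusted p = 0.0023). Dnmt3b, a de novo DNA methyltransferase that comes up in differentiating spermatogonia, was higher by 0.54 ± 0.15 (adjusted p = 0.017) but did not pass without Thy1 replicate 1 (0.14), Thy1 replicate 2 (0.069) or cKit replicate 1 (0.19). Kit is the other higher member. Sohlh1 and Sohlh2, transcription factors upstream of Kit, gave log2 fold changes of -0.22 ± 0.24, adjusted p = 0.59 and 0.19 ± 0.17, adjusted p = 0.5. Ccnd2, a D-type cyclin that is also induced at differentiation, was lower at 323 and 316 CPM in the Thy1 libraries and 153 and 177 CPM in the cKit libraries (-0.95 ± 0.12, adjusted p = 3.8e-05).

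In the retinoic acid pathway 22 genes were tested, of which 6 were higher and 1 lower, with a median of 0.08 that was -0.06 without cKit replicate 2. The higher members were mostly enzymes. Aldh1a1, which oxidizes retinal to retinoic acid, was at 843 and 1029 CPM in the Thy1 libraries and 2662 and 3149 CPM in the cKit libraries (3.10-fold, log2 fold change 1.63 ± 0.11, adjusted p = 9.8e-08). Adh1, an alcohol dehydrogenase, was at 73.4 and 104 CPM in the Thy1 libraries and 220.4 and 339.5 CPM in the cKit libraries (1.65 ± 0.19), and Cyp26b1, which degrades retinoic acid, at 596 and 727 CPM in the Thy1 libraries and 1541 and 1625 CPM in the cKit libraries (1.26 ± 0.11). Dhrs3, which returns retinal to retinol, and Adh5 were higher by 1.07 ± 0.15 and 0.70 ± 0.13. The receptors Rara and Rarg did not pass (0.11 ± 0.14, adjusted p = 0.67 and -0.12 ± 0.28, adjusted p = 0.83). Stra6, the retinol uptake receptor, was lower (-1.23 ± 0.34, adjusted p = 0.018), a call lost without Thy1 replicate 1 (0.26), cKit replicate 1 (0.052) or cKit replicate 2 (0.1). Aldh1a1, Adh1 and Cyp26b1 are also expressed by somatic cells of the testis, whose markers differed between the populations as described below, and the part of those cells in these values was not tested.

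Core germ cell genes, expressed throughout spermatogonia, were close to even or lower in cKit cells. Of 26 tested, 0 were higher and 6 lower (23.1% called, against 19.7% of all genes), and the median was -0.47. The list summed to 3471 and 3920.2 CPM in the Thy1 libraries and 3176 and 2482 CPM in the cKit libraries, lowest in cKit replicate 2. Ddx4, the germ cell RNA helicase, was at 149 and 191 CPM in the Thy1 libraries and 147 and 108 CPM in the cKit libraries and did not pass (-0.42 ± 0.15, adjusted p = 0.073). The replicate 1 values of the populations, 149 and 147 CPM, were nearly equal. Dazl, an RNA-binding protein of germ cells, was lower at 580.01 and 707 CPM in the Thy1 libraries and 488 and 378 CPM in the cKit libraries (-0.57 ± 0.14, adjusted p = 0.0099), but not without Thy1 replicate 2 (0.14) or cKit replicate 2 (0.12). The number of lower members was 0 without Thy1 replicate 2, 10 without cKit replicate 1 and 0 without cKit replicate 2. In bulk libraries fewer cells of a type and less RNA per cell cannot be told apart.

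The piRNA and germ granule list, which protects the germ line from transposons, had 6 lower and 0 higher of 25 tested and a median of -0.21 (0.20 scaled on core germ cell genes). That was 24% called, against 19.7% of all genes. The number lower was 2 without Thy1 replicate 2 and 2 without cKit replicate 2. Morc1, a transposon repressor, was at 81.8 and 87.6 CPM in the Thy1 libraries and 41.4 and 37.7 CPM in the cKit libraries (-1.10 ± 0.16, adjusted p = 0.00011), and Tdrd5, a Tudor-domain granule protein, at 39.7 and 42.8 CPM in the Thy1 libraries and 22.1 and 17.6 CPM in the cKit libraries (-1.05 ± 0.22, adjusted p = 0.0026). Of 36 genes of meiotic prophase, none passed with edgeR or DESeq2, and limma on RPKM called 3. In edgeR 8 had an unadjusted p under 0.05, against 31.5% of all genes tested. The median was -0.27 (0.17 scaled on core germ cell genes). Tex15 and Smc1b, the members of highest mean CPM, gave -0.36 ± 0.16 and -0.16 ± 0.16. Without 1 control library 0 to 3 meiotic genes were lower. Of the late spermatogenesis genes 7 of 26 had enough counts to be tested and none passed with edgeR, DESeq2 or limma, 1 of them having an unadjusted p under 0.05 in edgeR. Prm1, Prm3 and Crisp2 had 0 counts in all 4 libraries.

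Genes of proliferation and of chromatin were described by list. Of 31 genes of S phase none passed with edgeR, DESeq2 or limma. In edgeR 5 had an unadjusted p under 0.05, against 31.5% of all genes tested. The list median was -0.17 (0.25 scaled on core germ cell genes). Rrm1 and Pole, the members of highest mean CPM there, gave -0.17 ± 0.13 and -0.19 ± 0.14. Of 28 genes of G2 and M phase 2 were lower, with a list median of -0.03 (0.40 scaled on core germ cell genes). They were Kif11 and Ndc80 (-0.45 ± 0.15, adjusted p = 0.042 and -0.55 ± 0.15, adjusted p = 0.016). Kif11 did not pass without Thy1 replicate 1 (0.074), Thy1 replicate 2 (0.28) or cKit replicate 2 (0.32), and Ndc80 did not pass without Thy1 replicate 1 (0.053), Thy1 replicate 2 (0.14) or cKit replicate 2 (0.12). Mki67 and Top2a did not pass (0.20 ± 0.10, adjusted p = 0.2 and 0.18 ± 0.12, adjusted p = 0.35). Among 23 genes of CDK inhibitors and the p53 response, 3 were higher and 4 lower. The inhibitors Cdkn1c, at 63.2 and 55.9 CPM in the Thy1 libraries and 21.9 and 21.3 CPM in the cKit libraries (-1.46 ± 0.16, adjusted p = 7.0e-06), and Cdkn1a, at 40.3 and 39.4 CPM in the Thy1 libraries and 12.5 and 18.6 CPM in the cKit libraries (-1.37 ± 0.20, adjusted p = 0.00017), were lower with Pmaip1 and Sesn1, and Gadd45g, Sesn3 and Btg1 were higher. Sesn3 did not pass without Thy1 replicate 1 (0.053), Thy1 replicate 2 (0.11) or cKit replicate 2 (0.07), and Btg1 did not pass without Thy1 replicate 1 (0.1) or cKit replicate 2 (0.078). The number of higher members was 1 without Thy1 replicate 1 and 1 without cKit replicate 2.

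Among 15 genes of DNA methylation 2 were higher, Dnmt3b, whose call was lost without Thy1 replicate 1 (0.14), Thy1 replicate 2 (0.069) or cKit replicate 1 (0.19), and the demethylation enzyme Tet3 (0.48 ± 0.11, adjusted p = 0.0053). Among 23 PRC1 subunit genes 1 was higher, Bcor, a subunit of a variant complex, at 102 and 94.5 CPM in the Thy1 libraries and 181 and 151 CPM in the cKit libraries (0.76 ± 0.13, adjusted p = 0.00048). Among 11 PRC2 subunit genes 2 were lower, Mtf2 (138 and 155 CPM against 81.1 and 74.8 CPM, -0.91 ± 0.13, adjusted p = 0.00012) and Ezh1 (-0.59 ± 0.15, adjusted p = 0.011), and Ezh1 did not pass without Thy1 replicate 2 (0.12) or cKit replicate 2 (0.076). Scaled on core germ cell genes neither of these PRC2 genes passed, and the list median went from -0.09 to 0.35. In the LIN28 and let-7 list Lin28a, Igf2bp2 (-0.90 ± 0.19) and Igf2bp3 (-0.57 ± 0.16) were lower of 14, with a list median of -0.09 (0.33 scaled on core germ cell genes). Igf2bp3 did not pass without Thy1 replicate 1 (0.15), Thy1 replicate 2 (0.067), cKit replicate 1 (0.079) or cKit replicate 2 (0.084). Myc, the growth regulator, was the higher member at 68.8 and 66.8 CPM in the Thy1 libraries and 137 and 169.8 CPM in the cKit libraries (1.17 ± 0.15, adjusted p = 5.4e-05).

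Marker genes of steroid-making cells were higher in the cKit libraries. Of 16 Leydig cell markers tested, 14 were higher and 0 lower, with a median log2 fold change of 1.87. They summed to 3181 and 4045 CPM in the Thy1 libraries and 12751 and 15506 CPM in the cKit libraries, so the markers were present in all 4 libraries. Steroid synthesis could be followed step by step. Lhcgr, the luteinizing hormone receptor that starts it, was at 132 and 161 CPM in the Thy1 libraries and 569 and 673 CPM in the cKit libraries (2.08 ± 0.13, adjusted p = 2.8e-08). Scarb1, which takes up cholesterol from lipoproteins, was higher by 1.79 ± 0.14. Star, which carries cholesterol into the mitochondrion, was at 196 and 294 CPM in the Thy1 libraries and 792 and 1026 CPM in the cKit libraries (1.89 ± 0.25, adjusted p = 4.9e-05). Cyp11a1, the side-chain cleavage enzyme that makes pregnenolone, was at 121 and 144 CPM in the Thy1 libraries and 434 and 546 CPM in the cKit libraries (1.89 ± 0.13, adjusted p = 1.2e-07), and Fdx1, its electron donor, was higher by 1.85 ± 0.27. Hsd3b1, the next enzyme, was at 1639 and 1904 CPM in the Thy1 libraries and 7341 and 8045 CPM in the cKit libraries (4.34-fold, 2.12 ± 0.11, adjusted p = 9.5e-09).

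Cyp17a1, which turns progestogens into androgens, was at 184 and 344 CPM in the Thy1 libraries and 934 and 1620.3 CPM in the cKit libraries (4.83-fold, 2.27 ± 0.26, adjusted p = 1.2e-05). Replicate 2 was the higher one in both populations, but the groups did not overlap. Hsd17b3, which makes testosterone in the adult, was low at 2.63 and 4.34 CPM in the Thy1 libraries and 3.63 and 6.25 CPM in the cKit libraries and did not pass (0.48 ± 0.43, adjusted p = 0.5). Srd5a1, the steroid 5-alpha reductase of immature Leydig cells, and Akr1cl, an aldo-keto reductase, were higher by 1.55 ± 0.16 and 1.76 ± 0.14. Insl3, the Leydig cell hormone of testis descent, was at 194 and 234 CPM in the Thy1 libraries and 646 and 1018 CPM in the cKit libraries (1.96 ± 0.17, adjusted p = 9.4e-07). Nr5a1, the receptor that switches on this programme, was at 80.8 and 83.7 CPM in the Thy1 libraries and 313 and 313 CPM in the cKit libraries (1.93 ± 0.11, adjusted p = 1.5e-08). Prlr, the prolactin receptor, was higher by less (0.81 ± 0.16). Without 1 control library 12 to 13 of the 16 were higher.

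Genes that supply cholesterol were higher as well. This list of 26, chosen after values were seen, had 17 higher and 0 lower, with a median of 0.66. Hmgcs1, an early enzyme of the pathway, was at 152 and 186 CPM in the Thy1 libraries and 417 and 373 CPM in the cKit libraries (1.22 ± 0.12, adjusted p = 3.8e-06), and Sqle, a rate-limiting oxidase further down, at 185 and 174 CPM in the Thy1 libraries and 402 and 380.2 CPM in the cKit libraries (1.12 ± 0.11, adjusted p = 4.4e-06). Cyp51 and Dhcr7, enzymes of later steps, were higher by 1.06 ± 0.17 and 1.24 ± 0.17. Tm7sf2, a sterol reductase, had the largest difference among synthesis genes, at 2.23 and 4.46 CPM in the Thy1 libraries and 15.7 and 14.9 CPM in the cKit libraries (2.18 ± 0.35, adjusted p = 0.00033). The number higher was 10 without Thy1 replicate 1 and 9 without cKit replicate 2.

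The 20 genes of largest increase, among called genes with a mean log2 CPM of 3 or more, included Hsd3b1 and Cyp17a1. Among the others were Alas1, which starts haem synthesis for cytochromes P450 (121 and 157 CPM against 469.8 and 745 CPM, Thy1 before cKit), Aldh3a1, an aldehyde dehydrogenase (16.8 and 19.6 CPM against 80.9 and 103 CPM), and Plin1, a coat protein of lipid droplets (13.7 and 13.8 CPM against 50.6 and 70.5 CPM). The potassium channel gene Kcnk3 was at 60.2 and 83.4 CPM in the Thy1 libraries and 221 and 448 CPM in the cKit libraries (2.22 ± 0.24), and Iqgap2, a scaffold protein gene, at 83.1 and 105 CPM in the Thy1 libraries and 397 and 451 CPM in the cKit libraries (2.17 ± 0.13). Bmp2, a growth factor of the BMP family, was at 37.04 and 19.5 CPM in the Thy1 libraries and 156 and 89.5 CPM in the cKit libraries (2.13 ± 0.30, adjusted p = 0.00011). The largest fold change among them was that of Bpifb4, at 2.76 and 3.28 CPM in the Thy1 libraries and 23.3 and 20.9 CPM in the cKit libraries (7.27-fold, 2.86 ± 0.35, adjusted p = 2.9e-05). Slc25a34, whose promoter is printed above, was at 8.41 and 15.7 CPM in the Thy1 libraries and 53.9 and 58.9 CPM in the cKit libraries (2.21 ± 0.23, adjusted p = 4.2e-06). The rest were Cpa3, Mcpt4, Atp2b3, Dsc2, Myh7, Aqp2, Lipg, Oit3, Sphkap and Pip5k1b, with log2 fold changes from 2.11 (Pip5k1b) to 2.85 (Cpa3).

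Mast cell genes were higher from a low level. Of 11 tested, 8 were higher and 0 lower, with a median of 2.47, and the list summed to 60.5 and 67.3 CPM in the Thy1 libraries and 152 and 246 CPM in the cKit libraries. Cpa3, carboxypeptidase A of mast cell granules, was at 2.76 and 7.86 CPM in the Thy1 libraries and 30.7 and 47.4 CPM in the cKit libraries (7.19-fold, 2.85 ± 0.34, adjusted p = 2.4e-05), and the chymases Mcpt4 and Cma1 at 3.55 and 10.1 CPM in the Thy1 libraries and 32.3 and 58.5 CPM in the cKit libraries and at 1.18 and 2.58 CPM in the Thy1 libraries and 10.99 and 19.5 CPM in the cKit libraries. Hdc, which makes histamine, was at 8.67 and 14.5 CPM in the Thy1 libraries and 33.3 and 49.6 CPM in the cKit libraries (1.82 ± 0.25, adjusted p = 7.3e-05). Tpsb2, a tryptase gene, was at 1.97 and 1.88 CPM in the Thy1 libraries and 8.65 and 12.9 CPM in the cKit libraries (2.47 ± 0.38, adjusted p = 0.00026). Tpsab1, a second tryptase gene, had 0 counts in both Thy1 libraries and 67 in the cKit libraries together, so its level was at least 18.6-fold higher, with 3 counts for both libraries taken as the floor. The tryptase genes are paralogues, and how reads were shared between them is not given in the sources used here. The cKit replicate 2 library was the higher cKit library for each of these 6 genes. The other higher members, Ms4a2 and Il1rl1, lost their call without single libraries, Ms4a2 without Thy1 replicate 1 (0.15) or cKit replicate 2 (0.16) and Il1rl1 without Thy1 replicate 2 (0.19) or cKit replicate 2 (0.25). Gata2, Srgn and Mitf, which other cells also express, did not pass.

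Sertoli cells, the nurse cells of the tubule, gave a mixed picture. Of 28 genes tested, 9 were higher and 2 lower, and the list summed to 2175 and 2323 CPM in the Thy1 libraries and 3817 and 4022 CPM in the cKit libraries. Clu, a secreted chaperone, was at 149 and 160.04 CPM in the Thy1 libraries and 481 and 508 CPM in the cKit libraries (1.68 ± 0.12, adjusted p = 9.8e-08), Defb19 at 28.8 and 29.3 CPM in the Thy1 libraries and 93.1 and 118 CPM in the cKit libraries (1.86 ± 0.15, adjusted p = 4.6e-07) and Inha, the inhibin alpha subunit, at 11.3 and 14.2 CPM in the Thy1 libraries and 32.9 and 43.3 CPM in the cKit libraries (1.57 ± 0.21, adjusted p = 5.1e-05). Aard and Vnn1 were higher by 1.03 ± 0.16 and 1.59 ± 0.27. Gata4, a transcription factor of Sertoli and Leydig cells, was at 134 and 135 CPM in the Thy1 libraries and 259 and 277 CPM in the cKit libraries (0.99 ± 0.10, adjusted p = 5.7e-06). The other higher members are Gdnf, Cyp26b1 and Nr5a1, the last of which is also in the Leydig list. Cyp26b1, whose CPM are given above, makes up a large part of the list sum. Like Kit, it is listed under entries with nearly the same counts, so its reads may be counted more than once. The sum is therefore no measure of Sertoli cell RNA alone. Of the defining genes Sox9, Amh and Fshr did not pass and Wt1 was lower. Sox9 was at 25.6 and 19.2 CPM in the Thy1 libraries and 15.1 and 19.6 CPM in the cKit libraries and did not pass (-0.37 ± 0.25, adjusted p = 0.34). Amh and Fshr were at or below 4 CPM in every library and did not pass (1.32 ± 0.70, adjusted p = 0.22 and -0.47 ± 0.78, adjusted p = 0.74). Wt1, a transcription factor of Sertoli cells, was lower at 22.7 and 16.1 CPM in the Thy1 libraries and 8.74 and 7.26 CPM in the cKit libraries (-1.27 ± 0.26, adjusted p = 0.0025), and did not pass without Thy1 replicate 1 (0.053). The number of lower members of the list was 0 without Thy1 replicate 1, 1 without Thy1 replicate 2, 1 without cKit replicate 1 and 1 without cKit replicate 2.

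**Figure D3:**
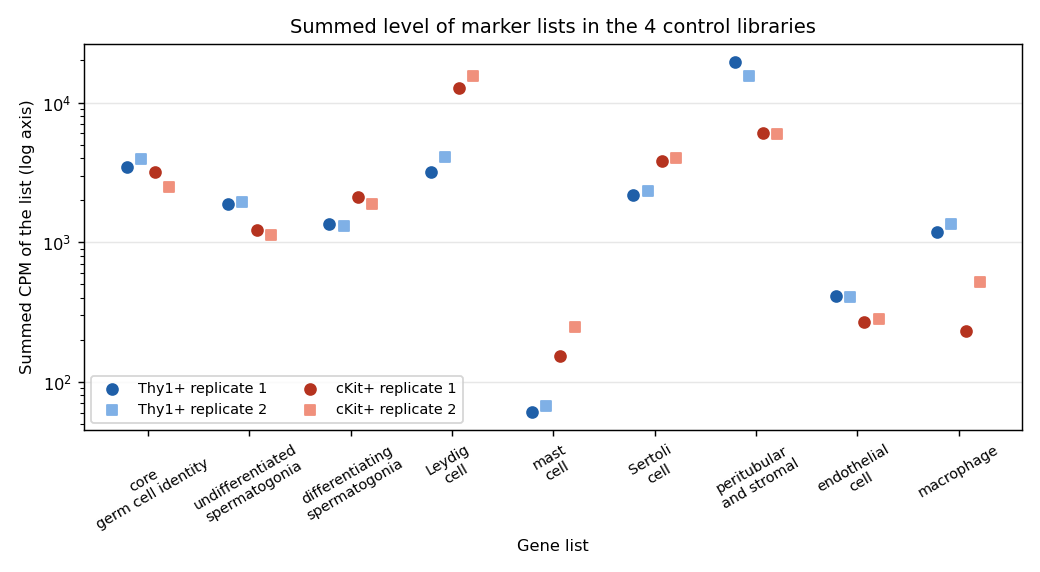
Summed CPM of 9 marker lists on a log axis in the 4 control libraries, blue for Thy1 and red for cKit, circles for replicate 1 and squares for replicate 2. Leydig and mast cell sums are higher in both cKit libraries, stromal and macrophage sums are higher in both Thy1 libraries, and the core germ cell sum is lowest in cKit replicate 2.

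The most extensive difference in the other direction was in stromal genes. Of 23 markers of peritubular and stromal cells tested, 0 were higher and 22 lower, with a median of -1.71, and the list summed to 19658 and 15386 CPM in the Thy1 libraries and 6029 and 5916 CPM in the cKit libraries. Genes of smooth muscle contraction, which mark the myoid cells around the tubules, were lower. Acta2, smooth muscle actin, was at 694 and 269.9 CPM in the Thy1 libraries and 35.2 and 30.97 CPM in the cKit libraries (14.5-fold lower, -3.86 ± 0.31, adjusted p = 3.9e-07), Myh11, its myosin, at 243 and 104 CPM in the Thy1 libraries and 26.04 and 22.4 CPM in the cKit libraries (-2.83 ± 0.30, adjusted p = 6.4e-06), and Des, desmin, at 41.2 and 30.6 CPM in the Thy1 libraries and 1.38 and 2.93 CPM in the cKit libraries (-4.11 ± 0.35, adjusted p = 8.0e-07). Thy1 replicate 1 held more Acta2 and Myh11 RNA than replicate 2, yet every Thy1 value lay above every cKit value. Pdgfrb, the receptor of pericytes and fibroblasts, was at 72.4 and 66.4 CPM in the Thy1 libraries and 4.67 and 6.37 CPM in the cKit libraries (-3.67 ± 0.23, adjusted p = 3.3e-08), and Pdgfra, also expressed by Leydig cell precursors, at 925 and 935 CPM in the Thy1 libraries and 424 and 341 CPM in the cKit libraries (-1.28 ± 0.13). Igf1, a growth factor made by stromal cells, was at 1118 and 1322 CPM in the Thy1 libraries and 145 and 182 CPM in the cKit libraries (-2.90 ± 0.16, adjusted p = 9.5e-09). The stromal transcription factors Tcf21 and Nr2f2 were lower by smaller amounts (-1.19 ± 0.18 and -0.69 ± 0.12), and neither passed when scaled on core germ cell genes.

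Many matrix genes were lower as well. Of those given here, Col1a1, Col3a1, Dcn and Lum are themselves members of the stromal list, so they add nothing independent to it. Col1a1, a chain of type I collagen, was at 2414 and 1558 CPM in the Thy1 libraries and 248 and 261 CPM in the cKit libraries (-2.97 ± 0.17, adjusted p = 1.5e-08), Col3a1 at 3857 and 2984 CPM in the Thy1 libraries and 1094 and 1077 CPM in the cKit libraries (-1.66 ± 0.12) and Dcn, decorin, at 1559 and 1298 CPM in the Thy1 libraries and 241 and 238 CPM in the cKit libraries (-2.58 ± 0.12, adjusted p = 5.5e-09). Of 34 collagen genes, a list chosen after values were seen, 4 were higher and 19 lower, with a median of -0.99. Col6a5, at 90.5 and 67.1 CPM in the Thy1 libraries and 1.21 and 2.80 CPM in the cKit libraries, had the largest difference of all genes at this level (41.4-fold lower, -5.37 ± 0.37, adjusted p = 8.2e-08), and Col12a1 and Col15a1 were lower (-3.64 ± 0.24 and -2.69 ± 0.15). The higher collagen genes were Col11a1 (0.82 ± 0.17, adjusted p = 0.0027), Col22a1, Col7a1 and Col4a5. Col22a1 did not pass without Thy1 replicate 1 (0.12), Thy1 replicate 2 (0.13), cKit replicate 1 (0.058) or cKit replicate 2 (0.11), Col7a1 did not pass without Thy1 replicate 2 (0.17) or cKit replicate 2 (0.14), and Col4a5 did not pass without Thy1 replicate 1 (0.12), Thy1 replicate 2 (0.25), cKit replicate 1 (0.061) or cKit replicate 2 (0.22). Of 10 small leucine-rich proteoglycan genes, also chosen after values were seen, 0 were higher and 9 lower. Lum was at 144 and 104 CPM in the Thy1 libraries and 5.71 and 3.44 CPM in the cKit libraries (-4.71 ± 0.27, adjusted p = 1.4e-08), Fmod at 68.4 and 52.996 CPM in the Thy1 libraries and 2.85 and 3.06 CPM in the cKit libraries (-4.36 ± 0.39) and Prelp at 54.5 and 36.3 CPM in the Thy1 libraries and 1.90 and 3.57 CPM in the cKit libraries (-4.10 ± 0.34).

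In the list of extracellular matrix and adhesion genes 3 were higher and 13 lower of 30, with a median of -0.31 (0.15 scaled on core germ cell genes). Postn, periostin, was at 303 and 199 CPM in the Thy1 libraries and 9.95 and 10.1 CPM in the cKit libraries (-4.65 ± 0.24, adjusted p = 9.5e-09), the gelatinase gene Mmp2 at 190.4 and 108 CPM in the Thy1 libraries and 23.96 and 18.4 CPM in the cKit libraries (-2.80 ± 0.22), and Itga1 and Cdh11, adhesion receptors of mesenchymal cells, were lower (-2.81 ± 0.26 and -2.05 ± 0.19). Lama1, a chain of the basement membrane laminin, was higher at 66.6 and 75.2 CPM in the Thy1 libraries and 135 and 184 CPM in the cKit libraries (1.17 ± 0.14, adjusted p = 3.0e-05), and so were the integrin gene Itga9 (1.11 ± 0.15) and Timp1, an inhibitor of metalloproteinases (0.87 ± 0.25, adjusted p = 0.023). Timp1 did not pass without Thy1 replicate 1 (0.059), Thy1 replicate 2 (0.18), cKit replicate 1 (0.059) or cKit replicate 2 (0.11).

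Besides Gfra1, Ret, Acta2, Des, Col6a5, Postn and the proteoglycan genes, the 20 genes of largest decrease included Rgs5, a pericyte gene, at 94.4 and 93.9 CPM in the Thy1 libraries and 5.02 and 3.44 CPM in the cKit libraries (-4.44 ± 0.19, adjusted p = 3.8e-09), Igfbp5, an IGF-binding protein gene, at 323 and 157 CPM in the Thy1 libraries and 18.3 and 14.7 CPM in the cKit libraries (-3.85 ± 0.30), and Mfap5, of elastic microfibrils, at 65.3 and 42.6 CPM in the Thy1 libraries and 2.77 and 1.27 CPM in the cKit libraries (-4.66 ± 0.32). The adhesion receptor gene Gpr133 was at 72.4 and 38.7 CPM in the Thy1 libraries and 2.08 and 2.29 CPM in the cKit libraries (-4.66 ± 0.33), and Pgm5, of smooth muscle adhesion plaques, at 66.5 and 20.2 CPM in the Thy1 libraries and 2.42 and 1.02 CPM in the cKit libraries (-4.56 ± 0.55). S100a6, Fmo2, Fndc1, 4833403I15Rik and Ifitm1 had log2 fold changes from -4.25 (S100a6) to -3.80 (Ifitm1).

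Macrophage marker genes were lower in the cKit libraries. Of 18 markers tested, 0 were higher and 15 lower, with a median of -1.94, and the list summed to 1175 and 1345 CPM in the Thy1 libraries and 230.4 and 519 CPM in the cKit libraries. Csf1r, the receptor for colony-stimulating factor 1, was at 142 and 168 CPM in the Thy1 libraries and 30.9 and 57.2 CPM in the cKit libraries (-1.83 ± 0.32, adjusted p = 0.00071), and Mrc1, the mannose receptor, at 280.02 and 352 CPM in the Thy1 libraries and 56.8 and 108 CPM in the cKit libraries (-1.95 ± 0.29, adjusted p = 0.00019). The complement gene C1qc was lower (-2.10 ± 0.37), as was the surface receptor gene Emr1 (-2.54 ± 0.45). For each of these 4 genes cKit replicate 2 lay above cKit replicate 1 and below both Thy1 libraries. Lyz2 did not pass (-1.52 ± 0.58, adjusted p = 0.085). Without 1 control library 11 to 15 of the 18 were lower.

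Markers of other cell types were tested in smaller lists. Of 15 endothelial genes tested, 1 was higher and 3 lower, the lower ones being Cdh5 (267 and 264 CPM against 173 and 169 CPM, -0.63 ± 0.10, adjusted p = 0.0003), Eng (-1.13 ± 0.19, adjusted p = 0.00043) and Tek (-1.32 ± 0.30, adjusted p = 0.0057) and the higher one Vwf (1.46 ± 0.46, adjusted p = 0.035). Vwf did not pass without Thy1 replicate 1 (0.25) or cKit replicate 2 (0.33), and Cdh5, Eng and Tek did not pass when scaled on core germ cell genes. Pecam1 was at 10.4 and 8.32 CPM in the Thy1 libraries and 8.56 and 7.77 CPM in the cKit libraries and did not pass. Of 6 T cell genes tested 3 were lower, Cd4, Ptprc and Cd3g, and Cd4 and Ptprc are also expressed by macrophages. Cd4 did not pass without Thy1 replicate 1 (0.093) or cKit replicate 1 (0.15), Ptprc did not pass without cKit replicate 1 (0.079), and Cd3g did not pass without Thy1 replicate 1 (0.06) or cKit replicate 1 (0.066). Cd3g had 20 counts in the Thy1 libraries together and 0 in the cKit libraries, so its level was at least 8.01-fold lower with the same floor. Cd8b1 had 0 counts in all 4. None of 3 erythroid genes passed with edgeR, DESeq2 or limma, and 0 had an unadjusted p under 0.05 (median -0.06, 0.47 scaled on core germ cell genes), and of 8 oocyte and granulosa genes Kit alone did.

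**Figure D4:**
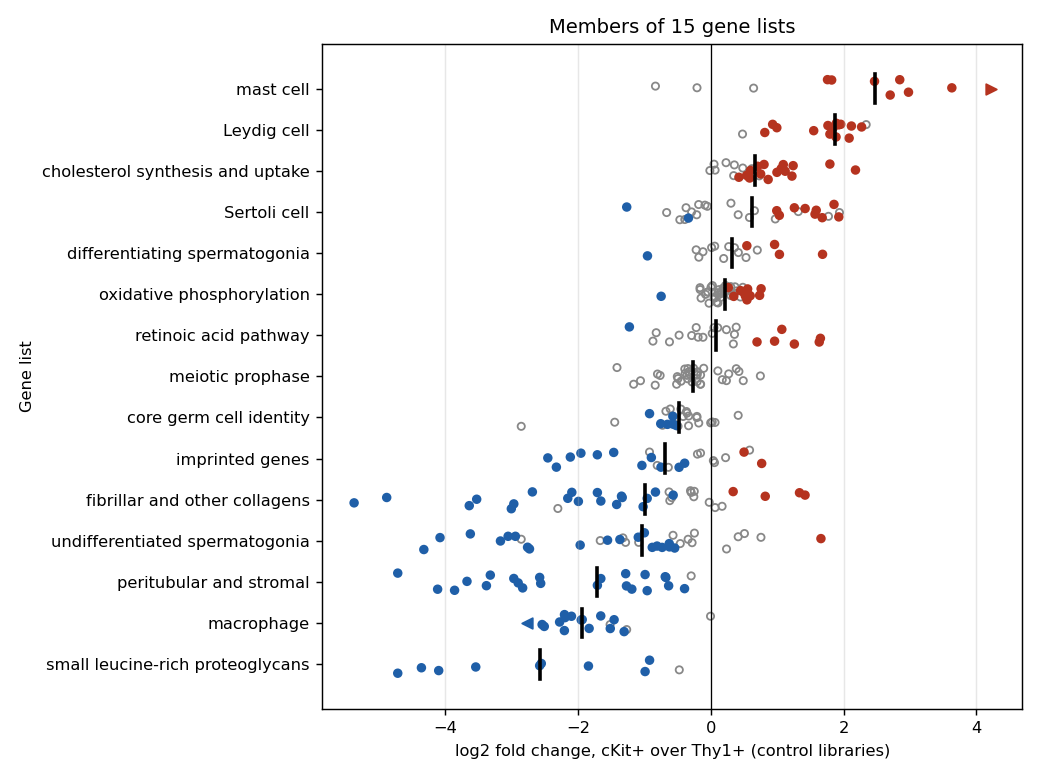
Log2 fold changes of cKit over Thy1 control cells (horizontal axis) for the members of 15 gene lists (vertical axis). Filled points passed an adjusted p of 0.05 (red higher, blue lower), open points did not, black bars are list medians, and triangles are lower bounds for genes with 0 counts in a group. Mast and Leydig cell lists have medians of 2.47 and 1.87, stromal and macrophage lists of -1.71 and -1.94.

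Imprinted genes, expressed from 1 parental allele and often high in growing mesenchyme, were mostly lower where they passed. Of 22 tested, 2 were higher and 11 lower, with a median of -0.69. Dlk1, a Notch-like growth regulator, was at 429.8 and 408 CPM in the Thy1 libraries and 84.4 and 82.7 CPM in the cKit libraries (-2.33 ± 0.11, adjusted p = 5.8e-09), Mest at 319 and 293 CPM in the Thy1 libraries and 61.7 and 49.5 CPM in the cKit libraries (-2.45 ± 0.18, adjusted p = 2.0e-07) and Plagl1, a zinc finger gene, at 916 and 1422 CPM in the Thy1 libraries and 297 and 242 CPM in the cKit libraries (-2.12 ± 0.18, adjusted p = 8.6e-07). H19, a long noncoding RNA, was at 513 and 444 CPM in the Thy1 libraries and 124 and 169 CPM in the cKit libraries (-1.71 ± 0.14, adjusted p = 3.8e-07), and its neighbour Igf2 at 1126 and 1038 CPM in the Thy1 libraries and 503 and 552 CPM in the cKit libraries (-1.04 ± 0.10). Zim1 and Cdkn1c were lower (-1.96 ± 0.19 and -1.46 ± 0.16). Of the higher genes, Ascl2 lost its call without Thy1 replicate 1 (0.27), Thy1 replicate 2 (0.091), cKit replicate 1 (0.073) or cKit replicate 2 (0.24) and Peg10 without Thy1 replicate 1 (0.39) or cKit replicate 2 (0.43).

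Of 29 Hox genes tested, body-axis regulators that PRC1 is known to silence, 5 were lower and 0 higher, with a median of -0.96. The share called, 17.2%, was near the 19.7% of all genes. Hoxc8 was at 30.7 and 11.5 CPM in the Thy1 libraries and 6.75 and 5.61 CPM in the cKit libraries (-1.76 ± 0.38, adjusted p = 0.0041) and Hoxc5 at 21.9 and 3.99 CPM in the Thy1 libraries and 1.64 and 3.82 CPM in the cKit libraries (-2.28 ± 0.61, adjusted p = 0.016). The Thy1 replicate 1 library was the highest of the 4 for both. The other 3 are Hoxa5, Hoxb5 and Hoxc4 (-4.83 ± 1.06, -2.60 ± 0.80 and -1.53 ± 0.38). Each call rested on single libraries. Hoxc8 did not pass without Thy1 replicate 1 (0.17), Hoxc5 not without Thy1 replicate 1 (0.63) or cKit replicate 1 (0.15), Hoxa5 not without Thy1 replicate 1 (0.15) or cKit replicate 1 (0.062), Hoxb5 not without Thy1 replicate 1 (0.2), Thy1 replicate 2 (0.075), cKit replicate 1 (0.12) or cKit replicate 2 (0.15) and Hoxc4 not without Thy1 replicate 1 (0.13) or cKit replicate 1 (0.08). The number lower was 0 without Thy1 replicate 1 and 1 without cKit replicate 1.

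Of 49 oxidative phosphorylation genes tested, 12 were higher and 1 lower, with a median of 0.22. Sdha, of complex II, was at 339 and 361 CPM in the Thy1 libraries and 534 and 488 CPM in the cKit libraries (0.55 ± 0.11, adjusted p = 0.0017), and Ndufb5, of complex I, and Atp5g3, of ATP synthase, were higher by 0.76 ± 0.15 and 0.59 ± 0.12. Atp5g1, an isogene of Atp5g3, was the lower one (-0.75 ± 0.16, adjusted p = 0.004). The number higher was 5 without Thy1 replicate 1, 2 without Thy1 replicate 2 and 4 without cKit replicate 2. Without Thy1 replicate 2 neither Ndufb5 (0.054) nor Atp5g3 (0.051) nor Atp5g1 (0.071) passed. In glycolysis and pyruvate entry 6 were higher and 3 lower of 30, with Pdk2, which restrains pyruvate dehydrogenase, at 66.6 and 69.5 CPM in the Thy1 libraries and 135 and 128 CPM in the cKit libraries (0.95 ± 0.12, adjusted p = 4.9e-05), and Hk2, a hexokinase gene, at 131 and 136 CPM in the Thy1 libraries and 237 and 209.5 CPM in the cKit libraries (0.74 ± 0.12, adjusted p = 0.00036). The number higher in that list was 3 without Thy1 replicate 1, and the number lower 1 without Thy1 replicate 1, 0 without Thy1 replicate 2 and 1 without cKit replicate 1. Of 76 ribosomal protein genes 8 were lower and 0 higher, with a median of -0.02 (0.44 scaled on core germ cell genes). The number lower was 2 without Thy1 replicate 1, 1 without cKit replicate 1 and 16 without cKit replicate 2.

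Of 25 immediate early and heat shock genes, which respond to the handling of cells, 6 were higher and 0 lower. The share called, 24%, was near the 19.7% of all genes. The number higher was 3 without Thy1 replicate 1, 3 without Thy1 replicate 2 and 3 without cKit replicate 2. The chaperonin gene Hspd1 was at 249.9 and 305 CPM in the Thy1 libraries and 538 and 622 CPM in the cKit libraries (1.06 ± 0.12, adjusted p = 1.4e-05) and the phosphatase gene Dusp1 at 427 and 384 CPM in the Thy1 libraries and 645 and 796 CPM in the cKit libraries (0.83 ± 0.14, adjusted p = 0.0005). Of 19 interferon response genes 5 were lower and 0 higher, with a median of -0.55 that was 0.14 without Thy1 replicate 1. Oasl2, an antiviral gene, was at 64.1 and 38.5 CPM in the Thy1 libraries and 10.6 and 8.54 CPM in the cKit libraries (-2.41 ± 0.33, adjusted p = 7.1e-05), and Ifit2 at 12.3 and 11.02 CPM in the Thy1 libraries and 3.72 and 2.68 CPM in the cKit libraries (-1.85 ± 0.35). B2m, the light chain of class I histocompatibility molecules, was lower (-0.80 ± 0.12), and Ifih1 and Ifit1 were the others. Ifih1 did not pass without Thy1 replicate 1 (0.22), cKit replicate 1 (0.064) or cKit replicate 2 (0.098), and Ifit1 did not pass without Thy1 replicate 1 (0.15), cKit replicate 1 (0.12) or cKit replicate 2 (0.054). The number lower was 3 without Thy1 replicate 1, 3 without cKit replicate 1 and 3 without cKit replicate 2.

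The same contrast in the dKO libraries shows which differences between the populations were also present after the knockout. There 5190 genes (34.8%) passed between cKit and Thy1. Of the 1410 genes higher in control cKit cells, 1068 were also called higher in dKO cells and 23 called lower. Of the 1529 lower genes, 951 were called lower and 12 called higher. A test of the difference itself, the population by genotype interaction, called 883 genes (5.92%), 605 of them with a lower cKit to Thy1 ratio in dKO cells (4.06%) and 278 with a higher one (1.86%). Other scalings moved this split, to 964 lower and 172 higher without TMM and 514 lower and 347 higher with DESeq2's size factors. Limma on the deposited RPKM values gave 1013 lower and 35 higher. The number called was 220 without Thy1 dKO replicate 1, 378 without Thy1 dKO replicate 2, 297 and 526 without Thy1 control replicates 1 and 2, and 367 without cKit control replicate 1. Of the control calls, 67 of the higher and 222 of the lower genes were among these 883.

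Germ cell genes were among those with a lower ratio in dKO cells. Of 26 core germ cell genes 17 passed the interaction, all toward lower values in dKO cKit cells, and the list median was -0.47 in control and -1.67 in dKO cells. Ddx4, not called in control cells, had a log2 fold change of -1.92 in dKO cells (interaction -1.50 ± 0.23, adjusted p = 0.0019). Of 16 differentiating markers 6 passed, with medians of 0.31 and -0.95. The increase of Stra8 in control cKit cells stood against -0.44 ± 0.20 in dKO cells, where it did not pass (adjusted p = 0.11). Its interaction was -1.40 ± 0.28, adjusted p = 0.0088, and that of Sohlh2 was -1.86 ± 0.25, adjusted p = 0.0011. Meiotic genes, of which none was called in control cells, had a median of -1.36 in dKO cells, and 13 of 36 passed the interaction. The 5 genes of smallest p in this direction were Bend4, Bnc1, Cad, Ccp110 and Cenpf, with interaction values from -1.28 (Cad) to -2.30 (Bnc1). Scaled on core germ cell genes the split turned, with 27 genes lower and 9090 higher in the interaction, so these values are relative to all RNA in each library.

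The medians of the Leydig and stromal lists kept their sign in dKO cells. Leydig markers had a median of 1.87 in control and 1.85 in dKO cells, and Hsd3b1 differed by -0.01 between genotypes (adjusted p = 0.98). Stromal markers had medians of -1.71 and -1.21, and 12 of 23 passed toward a less negative value in dKO cells. Des gave -1.46 in dKO cells (interaction 2.65 ± 0.46, adjusted p = 0.0043), and Col1a1 -1.45 (1.52 ± 0.22, adjusted p = 0.0017). The 5 genes of smallest p in this direction were Ddit4, Penk, Thbd, Dpt and Brwd3, with interaction values from 1.27 (Thbd) to 2.72 (Ddit4). Ddit4 was lower in control cells, a call lost without Thy1 replicate 2 (0.053). The sort markers Thy1 and Kit did not pass the interaction (adjusted p = 0.87 and 0.7), nor did Gfra1 (0.96) or Ret (0.67).

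**Figure D5:**
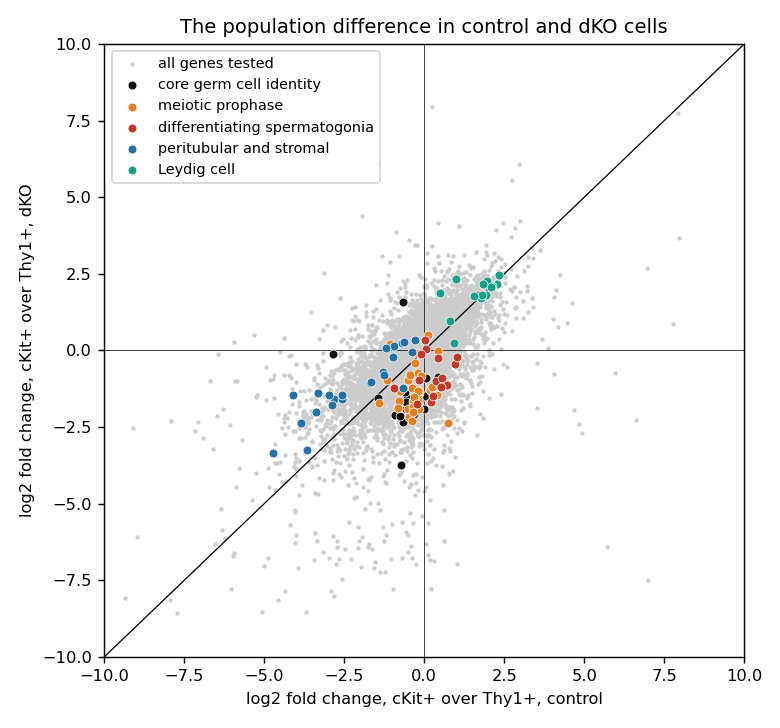
Log2 fold change of cKit over Thy1 in dKO cells (vertical axis) against the same in control cells (horizontal axis) for all genes tested, in grey, and the members of 5 gene lists in colour, with the line of equal values. Most core germ cell, meiotic and differentiating genes lie below the line, most Leydig cell markers near it, and most stromal markers above it.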

How the data were processed

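RNA was sequenced from sorted spermatogonia in 8 libraries, 2 per group. The submitters' processing notes name STAR 2.4.2a and the build mm10. The deposited tables give counts per transcript entry, which were summed per gene, and RPKM by the authors, per the file headers. RPKM served as an alternative only, as log2(RPKM + 1) in limma 3.58.1. The counting tool and its use of strand are not given in the sources used here. Totals per control library ran from 7417665 to 10976869 counts, with Rn45s, a ribosomal RNA, at 8.42% to 13.6% of counts. Intervals are not given, and a floor of 3 counts covers counting error only.

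Genes were kept with filterByExpr by group, scaled by TMM and tested with edgeR 4.0.16 (R 4.3.3) in 1 quasi-likelihood fit over all 8 libraries with 1 mean per group and Benjamini-Hochberg adjustment over all genes tested. The error after ± is the standard error of the log2 fold change. DESeq2 1.42.0 was an alternative. The code was tested on simulated counts. Alternatives were other scalings, filters, a replicate block and leaving out each library. The control calls of Nanos2, Lhx1, Kif11, Hoxb5, Ascl2, Peg10 and Col4a5 also depended on each Thy1 dKO library, which enters the shared spread. Genes were named by rule: the sort and identity genes, the 20 largest changes each way among called genes with a mean log2 CPM of at least 3, members of the spermatogonial and cell type lists, up to 5 called members of the other lists each way (the 2 of highest mean CPM where none was called), and the 5 smallest interaction p-values each way. The members and lists were chosen with earlier results of these data known, and the cholesterol, collagen and proteoglycan lists after values were seen. Promoters come from RefSeq. A few genes that these rules name are not reported here.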

Additional observations from a re-analysis of the deposited data

Results flagged for a closer look

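The difference between cKit and Thy1 cells was compared between dKO and control libraries for the 210 genes given above, and the test of that difference, the population by genotype interaction in edgeR's quasi-likelihood test, passed an adjusted p of 0.05 for 51 of them. Over all 14907 genes tested, 883 (5.92%) passed. The 210 genes include those named for the smallest interaction p, 5 each way, so the count of 51 is partly set by that choice. Values are log2 differences, dKO minus control. In 23 genes the cKit to Thy1 ratio was lower in dKO cells. The values were Bnc1 (-2.30), Epcam (-1.97), Sohlh2 (-1.86), Smc1b (-1.75), Morc1 (-1.69), Tex15 (-1.66), Ccp110 (-1.59) and Bend4 (-1.59). Next came Sohlh1 (-1.52), Ddx4 (-1.50), Cenpf (-1.50), Dnmt3b (-1.46), Stra8 (-1.40), Dazl (-1.33), Cad (-1.28) and Dmrtb1 (-1.24). The smallest differences of this sign were Itga6 (-1.15), Pole (-1.04), Top2a (-0.96), Kif11 (-0.86), Mcam (-0.85), Ndc80 (-0.80) and Mki67 (-0.77). Their adjusted p ran from 0.00083 to 0.045.

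In 28 genes the ratio was higher in dKO cells. The values were Ddit4 (2.72), Des (2.65), Hoxc4 (2.21), 4833403I15Rik (2.11), Ifit2 (1.97), Dpt (1.80), Ifitm1 (1.77), Penk (1.61), Col1a1 (1.52) and Acta2 (1.47). They were followed by Brwd3 (1.34), Col12a1 (1.33), Thbd (1.27), Tcf21 (1.26), Postn (1.25), Mmp2 (1.14), Igf1 (1.12), Dcn (1.12), Dlk1 (1.09) and H19 (1.07). The remainder were Spry1 (1.02), Zim1 (0.98), Col15a1 (0.92), Nr2f2 (0.91), Etv5 (0.89), Igf2 (0.86), Dusp1 (0.74) and Col3a1 (0.64). The adjusted p ran from 0.00083 to 0.045. Which cells differ between the genotypes was not tested. With 2 libraries in each group no library could be tested as standing apart from its group.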

How the results depend on the processing

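The main count was 2939 genes called between the control populations, 1410 higher and 1529 lower in cKit cells. Scaling on core germ cell genes gave 2342 higher and 642 lower, and limma on the deposited RPKM values gave 2504 and 927. Counts under library totals without TMM, DESeq2's size factors, no filter, a stricter filter, the largest entry per gene, Rn45s and mitochondrial genes left out, only the 4 control libraries, and the DESeq2 test lay within 1.5 times the main count. Leaving out 1 library gave 1717 to 3575 called, 785 to 1690 higher and 912 to 1885 lower. The replicate numbers did not pair the libraries: deviations of same-numbered Thy1 and cKit control libraries correlated at 0.053, and over all pairs of groups the range was -0.041 to 0.053. With the replicate block 2958 genes were called, 2839 of them shared with the main test, and 924 in the interaction.

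For the interaction the main counts were 883 called, 278 higher and 605 lower. They were 172 higher and 964 lower without TMM. No filter on low counts gave 1490 called, 550 higher and 940 lower. Scaling on core germ cell genes gave 9117 called, 9090 higher and 27 lower. DESeq2 gave 450 higher, and limma on RPKM gave 35 higher and 1013 lower. Leaving out 1 library gave 220 to 1268 called, 55 to 550 higher and 165 to 718 lower. List medians changed sign in 33 combinations of a list and an alternative over 17 lists. Those of lists whose main median exceeded its spread between replicates follow. Scaled on core germ cell genes they were 0.18 (GDNF, FGF and KIT signalling), 0.35 (PRC2), 0.25 (S phase) and 0.15 (extracellular matrix). With limma on RPKM they were 0.10 (PRC2) and 0.060 (S phase), and with the stricter filter 0.11 (Hox genes). Without 1 library the median of differentiating genes ran from -0.0033 (without cKit control replicate 1) to 0.49, that of glycolysis genes was -0.10 without cKit control replicate 2, and that of interferon genes ran from -0.74 to 0.14 (without Thy1 control replicate 1). The causes were not tested. Of 180 called genes given above, 125 passed under every alternative run, 55 missed the threshold under at least 1, 3 of them with DESeq2, and none reversed. Depth limits genes of few counts, for which 3 counts in a group of 0 is the floor used.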
